A study of Mus musculus with 16 samples.

Results

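The genes described here encode the subunits of the 5 oxidative phosphorylation complexes. They are the protein-coding rows of the read count table whose symbols begin with Nduf (letters a, b, c, s or v), Sdha to Sdhd, Uqcr, Cox4 to Cox8 or Atp5, together with the subunits encoded by mitochondrial DNA (mt-Nd, mt-Cytb, mt-Co and mt-Atp), without pseudogenes. This rule found 98 of the 55359 genes in the table. Of these, 85 are nuclear genes, with 35 in complex I, 4 in complex II, 8 in complex III, 20 in complex IV and 18 in complex V. The other 13 are mitochondrially encoded, with 7 in complex I, 1 in complex III, 3 in complex IV and 2 in complex V. Ndufa4 and its paralog Ndufa4l2 were placed with complex IV, where the Ndufa4 protein resides.

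RNA came from the ileum and the duodenum of 8 adult male C57BL/6N mice on a high fat diet, taken 5 weeks after tamoxifen. The mutant mice (Neurog3f/f; Villin-CreERT2, n = 4) carry floxed Neurog3 and a tamoxifen-inducible Cre driven by Villin, a gene of intestinal epithelial cells. The control mice (Neurog3f/f, n = 4) carry the floxed alleles without Cre. The groups are therefore mutant ileum, control ileum, mutant duodenum and control duodenum, with 4 libraries each, and both tissues came from the same mice. Because the controls have no Cre, an effect of the Cre transgene and an effect of losing Neurog3 cannot be told apart, and the labels do not give the age in weeks or which layers of the gut wall were taken. The mice are called 1 to 4 within each genotype, by ascending number in the labels, and values for single mice are given in that order.

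Oxidative phosphorylation passes electrons from NADH (complex I) and succinate (complex II) through ubiquinone, complex III and cytochrome c to oxygen at complex IV, and the resulting proton gradient drives ATP synthesis by complex V. Complex II is built only from nuclear genes, whereas the other complexes combine nuclear subunits with a core made inside the mitochondrion from its own DNA, so both genomes must be expressed for assembly. In the small intestine, enterocytes are rich in mitochondria and use this system to power nutrient uptake and lipid handling.

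Libraries held 40.9 to 67.2 M gene-assigned counts. Neurog3, the transcription factor gene that the Cre line targets, had 0.0166, 0, 0 and 0 CPM (counts per M, with TMM-scaled library sizes) in mutant ileum and 1.03, 1.03, 0.938 and 0.558 CPM in control ileum. It had 0, 0.0234, 0 and 0 CPM in mutant duodenum and 2.56, 2.81, 2.59 and 2.42 CPM in control duodenum. Summed levels of 10 enteroendocrine markers were 8.69 to 10.3 CPM in mutant ileum and 115 to 164 CPM in control ileum, and 7.75 to 15.98 CPM in mutant duodenum and 366 to 481 CPM in control duodenum. Other tissues were also represented in the libraries. Summed levels of 12 exocrine pancreas markers were 8511 to 187911 CPM in mutant duodenum and 3.90 to 30421 CPM in control duodenum, with the highest sums in mutant mice 2 and 4. Summed levels of 8 lymphoid follicle markers were 2.90 to 5.63 CPM in mutant ileum and 7.16 to 162 CPM in control ileum, with the highest sums in control mice 2 and 4.

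Only 7 of the 13 mitochondrially encoded subunits carried more than 39 counts over all libraries. mt-Nd1, mt-Nd2, mt-Nd4, mt-Nd5, mt-Nd6, mt-Cytb and mt-Co1 had 94189 to 5877327 counts each over the 16 libraries. In contrast, mt-Co2, mt-Nd3, mt-Nd4l and mt-Atp8 had 0 counts, mt-Co3 had 1 and mt-Atp6 had 39. These genes encode subunits that every respiring cell makes, so they are described only as listed at or near 0, with no level. For mt-Co2, 100% of the 50-base windows of its transcript also occur in another annotated gene, and the share was 99.86% for mt-Co3, 99.53% for mt-Atp6, 98.79% for mt-Nd4l and 97.99% for mt-Nd3. The main partners were nuclear copies of mitochondrial DNA on chromosome 1: Gm28661 matches mt-Co2 in 681 of 681 aligned bases, Gm28437 matches mt-Co3 in 783 of 783, Gm10925 matches mt-Atp6 in 678 of 678, Gm10222 matches mt-Nd4l in 294 of 294 and Gm28438 matches mt-Nd3 in 344 of 345. mt-Atp8 was the exception, with 0 counts and 0 of its 155 windows shared with an annotated gene. The part of shared sequence in the low counts was not tested. The first 80 bases of mt-Co2 (chromosome M), which encodes the subunit that receives electrons from cytochrome c, and of its chromosome 1 copy are shown because a read from this stretch matches both genes. The sequences are from GENCODE M21 (GRCm38), read 5′ to 3′ along the transcript, and no base differs between them, so none is in capitals.
mt-Co2 and Gm28661, bases 1 to 80: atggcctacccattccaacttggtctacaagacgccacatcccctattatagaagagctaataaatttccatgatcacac
Sharing was partial among some of the counted genes. It reached 62.23% of windows in mt-Nd4, 51.14% in mt-Co1, 8.19% in mt-Nd2 and 7.61% in mt-Nd5, and it was 0% in mt-Nd1, mt-Nd6 and mt-Cytb. Whether counting used strand is not given in the sources used here, and mt-Nd6 lies on the opposite strand to the other mitochondrial protein genes.

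**Figure D1:**
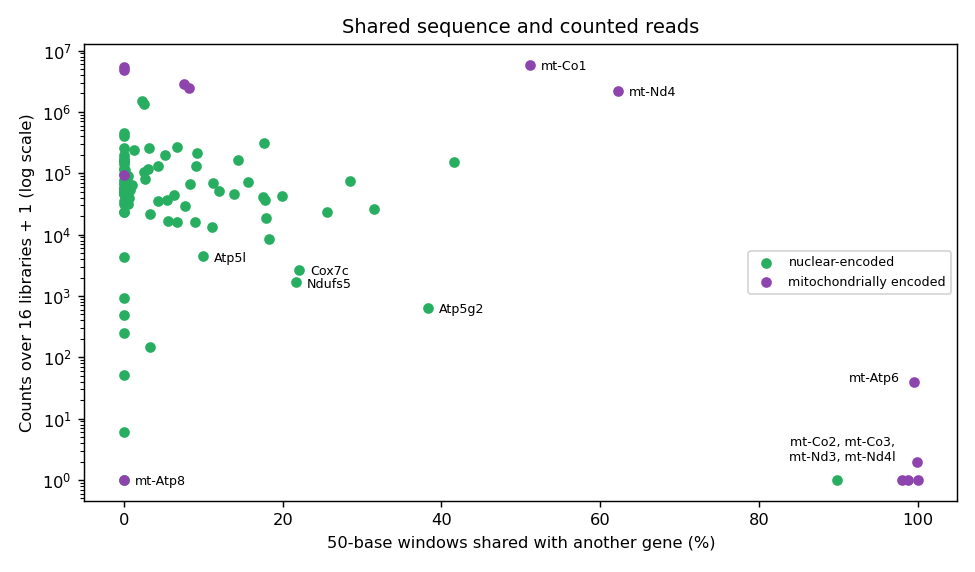
Share of each subunit's 50-base windows found in another annotated gene (x, percent) against its counts summed over the 16 libraries plus 1 (y, log scale), with 1 point per gene. The mitochondrial genes near 100% on the x axis have 0 to 39 counts, and mt-Atp8 has 0 counts at 0%.

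Nuclear subunit transcripts were lower in ileum than in duodenum in every mouse of both genotypes. The summed level of all nuclear subunits was 9623, 6600.1, 9561 and 8572 CPM in mutant ileum, against 15682, 13201, 16572 and 13245 CPM in mutant duodenum. It was 7196, 7662, 6198 and 6740.0 CPM in control ileum, against 16495, 17559.5, 16207 and 14633 CPM in control duodenum. In CPM the ileum and duodenum ranges did not overlap in either genotype, and the ratio of the means, ileum over duodenum, was 0.585 in mutant mice and 0.428 in control mice. As a percent of all counts, this nuclear ratio was 0.835 in mutant mice and 0.567 in control mice. On that scale the mutant ranges overlapped, at 0.850 to 1.097% in ileum and 1.048 to 1.368% in duodenum. The control ranges stayed apart, and every mouse of both genotypes was still lower in ileum. The size of the nuclear difference, and its separation in mutant mice, therefore depended on the scaling. Mitochondrially encoded transcripts did not follow the same pattern in control mice. Their sum was 23368, 18232, 21175 and 20925 CPM in mutant ileum and 47056, 46288, 33480.3 and 34838 CPM in mutant duodenum, with no overlap. It was 23853, 24561, 24252 and 24908 CPM in control ileum and 37177, 19037, 25520.3 and 32161 CPM in control duodenum, where the duodenum values lay on both sides of the ileum values. As a percent of all counts, the ratio of the mitochondrial means, ileum over duodenum, was 0.742 in mutant mice and 1.15 in control mice. In CPM it was 0.518 and 0.857, so its direction in control mice depended on the scaling. In bulk tissue, fewer cells of a type and less RNA per cell cannot be told apart, and this holds for all the levels given here.

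**Figure D2:**
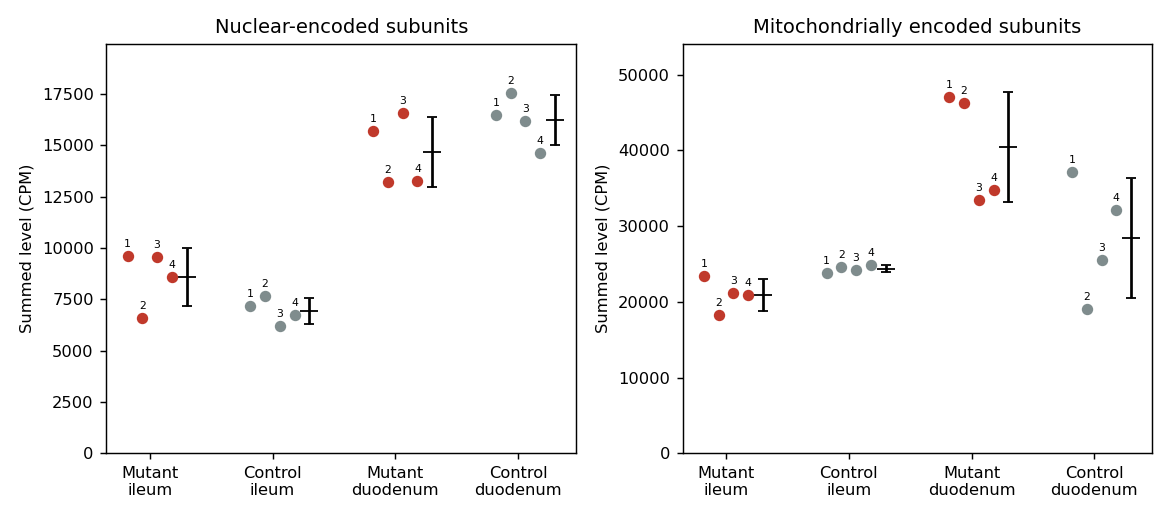
Summed level (CPM) of the nuclear-encoded subunits (left) and the mitochondrially encoded subunits (right) in each of the 16 libraries, labelled by mouse, with the group mean and SD (n = 4) as bars beside the points. Nuclear sums in ileum (6198 to 9623 CPM) lie below those in duodenum (13201 to 17559 CPM), and the mitochondrial sums of control duodenum are spread from 19037 to 37177 CPM.

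Gene by gene, 79 of 87 tested subunits were lower in the ileum of mutant mice and none was higher, where 18.2% of all tested genes were lower and 12.9% higher, 31.1% in all (edgeR's quasi-likelihood test, Benjamini-Hochberg adjusted p under 0.05). With DESeq2 the total was 78 and with limma-voom 79. By edgeR, 80 of the 87 members had an unadjusted p under 0.05, beside 7481 of all 17852 tested genes. In control mice, 76 of 87 were lower and 1 was higher, where 30.3% of all tested genes were lower and 28% higher, 58.3% in all. The low-count filter removed 11 members, namely the 6 mitochondrial genes above and the 5 nuclear genes Cox6a2, Cox7b2, Cox8b, Cox8c and a second Atp5o entry (ENSMUSG00000116933), none of which exceeded 0.626 CPM in a library. Of the members, 74 were called lower in both genotypes. The median log2 fold change of the 80 tested nuclear members was -0.77 in mutant mice and -1.20 in control mice, beside -0.01 and -0.0050 for all tested genes. The median of the 7 tested mitochondrial members was -0.98 in mutant mice and -0.15 in control mice. Without mutant mice 2 and 4, 76 members were called lower in the mutant ileum, and 76 were called lower and 2 higher in the control ileum without control mice 2 and 4. Markers of several cell types also differed between the tissues. Summed levels of 8 smooth muscle markers were 2626 to 4324 CPM in mutant ileum and 1019 to 1817 CPM in mutant duodenum, and 2375 to 3416 CPM in control ileum and 869 to 1201 CPM in control duodenum, and 8 of 8 were called higher in ileum in both genotypes. Summed levels of 9 enterocyte markers were 8264 to 18211 CPM in mutant ileum and 19112 to 42489 CPM in mutant duodenum, and 16719 to 27642 CPM in control ileum and 39531 to 53932 CPM in control duodenum. Of these 9 markers, 4 were lower and 2 higher in the ileum of mutant mice, and 6 were lower and 2 higher in that of control mice. Summed levels of the 12 exocrine pancreas markers were 144 to 2739.8 CPM in mutant ileum and 8511 to 187911 CPM in mutant duodenum, where 11 of 11 tested were called lower in ileum, with a median log2 fold change of -5.96. They were 2.01 to 1209 CPM in control ileum and 3.90 to 30421 CPM in control duodenum, where edgeR called 0 of 12 and 0 had an unadjusted p under 0.05, with a median log2 fold change of -4.49. The part of tissue composition in the subunit differences was not tested.

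**Figure D3:**
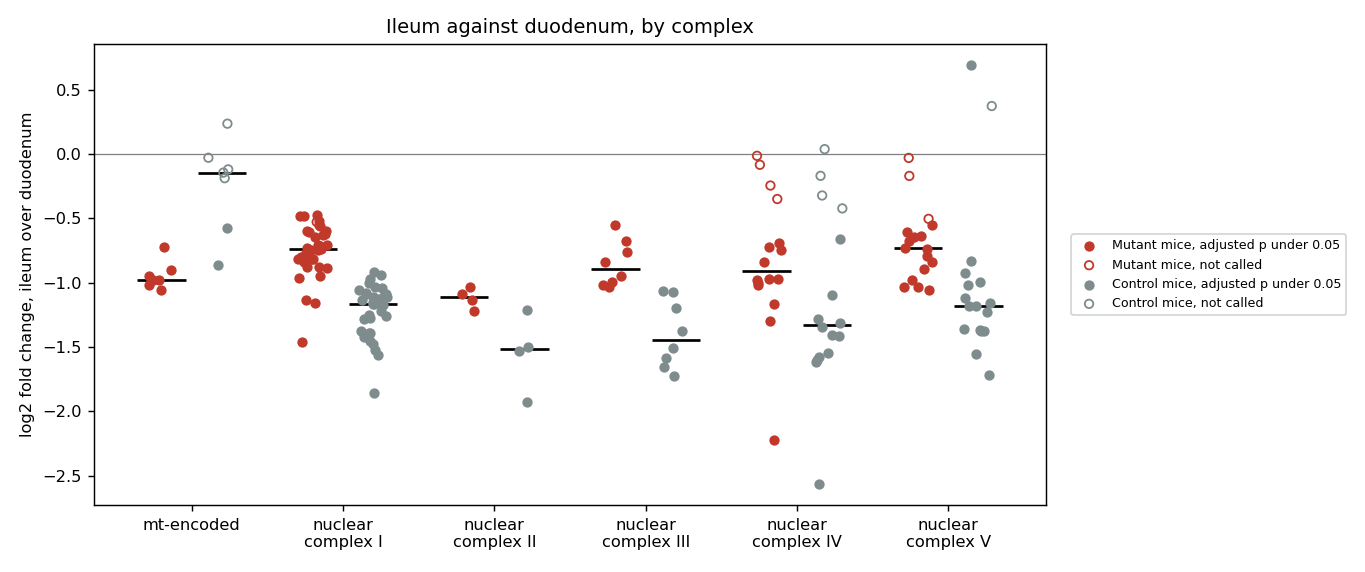
Log2 fold change, ileum over duodenum, of each tested subunit, grouped as mitochondrially encoded or by nuclear complex, in mutant mice (red, left of each pair) and control mice (grey, right). Filled points have an adjusted p under 0.05, open points do not, and black lines are group medians. The mitochondrial median is -0.98 in mutant and -0.15 in control mice, while each nuclear complex has a median below -0.7 in both.

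Complex I, which oxidises NADH, was lower in ileum in nearly all of its nuclear subunits. Of its 35 nuclear members, 34 were called lower in mutant mice (median log2 fold change -0.74) and 35 in control mice (median -1.16). Ndufv1, which carries the flavin that accepts electrons from NADH, had 129, 105, 149 and 129 CPM in mutant ileum and 238, 224, 248 and 203 CPM in mutant duodenum (log2 fold change -0.84, SE 0.13, edgeR adjusted p = 0.000625), with no overlap. The accessory subunit Ndufb10 had 56.97, 54.9, 50.2 and 55.6 CPM in control ileum and 132, 139, 134.1 and 129.6 CPM in control duodenum (log2 fold change -1.28, SE 0.06, edgeR adjusted p = 2.39e-07), the smallest p-value of any member in that comparison. The accessory subunits Ndufa12 and Ndufc1 were lower in control ileum by similar amounts. Ndufa12 averaged 23.9 ± 2.46 CPM in control ileum and 64.6 ± 3.47 CPM in control duodenum (SD, n = 4 each; log2 fold change -1.42, edgeR adjusted p = 5.21e-07). Ndufc1 averaged 22.4 ± 2.88 CPM and 65.1 ± 3.62 CPM in the same groups (SD, n = 4 each; log2 fold change -1.52, edgeR adjusted p = 6.51e-07). In mutant mice the accessory subunit Ndufa6 averaged 49.4 ± 6.68 CPM in ileum and 91.2 ± 8.04 CPM in duodenum (SD, n = 4 each; log2 fold change -0.88, edgeR adjusted p = 0.000358). The member not called in mutant mice was Ndufs5, a small subunit of the membrane arm with 1.46, 1.15, 1.87 and 1.29 CPM in mutant ileum and 1.61, 1.64, 2.82 and 2.27 CPM in mutant duodenum (log2 fold change -0.53, edgeR adjusted p = 0.138). Ndufs5 shares 21.71% of its windows, with a processed pseudogene, BC002163.

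Complex II, succinate dehydrogenase, takes part in both the tricarboxylic acid cycle and the respiratory chain, and all 4 of its genes were called lower in ileum in both genotypes (median log2 fold change -1.11 in mutant and -1.52 in control mice). Sdha, the flavoprotein subunit, had 393, 313, 373 and 342 CPM in mutant ileum and 810.1, 665, 793 and 644 CPM in mutant duodenum (log2 fold change -1.03, SE 0.14, edgeR adjusted p = 0.000313). It had 334, 348, 301 and 315 CPM in control ileum and 814, 725, 798 and 701 CPM in control duodenum (log2 fold change -1.21, SE 0.10, edgeR adjusted p = 3.38e-06). The tissues did not overlap in either genotype. Sdhb, the iron-sulfur subunit, had 126, 93.6, 143 and 117 CPM in mutant ileum and 311, 256, 306 and 244 CPM in mutant duodenum (log2 fold change -1.22, SE 0.15, edgeR adjusted p = 0.000154), the smallest p-value of any nuclear member in mutant mice. It had 115, 121, 105 and 113 CPM in control ileum and 346, 358, 333 and 293 CPM in control duodenum (log2 fold change -1.53, SE 0.09, edgeR adjusted p = 4.64e-07). The membrane anchors Sdhc and Sdhd followed. Sdhc averaged 83.8 ± 13.9 CPM in mutant ileum and 178 ± 27.99 CPM in mutant duodenum (SD, n = 4 each; log2 fold change -1.09, edgeR adjusted p = 0.00037). Sdhd had the second largest fall of all members in control mice, with 96.2, 117, 85.9 and 102 CPM in control ileum and 354, 456, 399 and 332 CPM in control duodenum (log2 fold change -1.93, SE 0.13, edgeR adjusted p = 1.04e-06).

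Complex III passes electrons from ubiquinol to cytochrome c. All 8 nuclear members were called lower in ileum in both genotypes (median log2 fold change -0.90 in mutant and -1.44 in control mice). Uqcrc1, a matrix-facing core protein, had 358, 267, 382 and 329 CPM in mutant ileum and 686, 611, 738 and 625 CPM in mutant duodenum (log2 fold change -0.99, SE 0.14, edgeR adjusted p = 0.000489). It had 285, 269.9, 253 and 273 CPM in control ileum and 743, 685, 716 and 690.4 CPM in control duodenum (log2 fold change -1.38, SE 0.09, edgeR adjusted p = 1e-06). No ileum library reached the level of a duodenum library in either genotype. Uqcrfs1, the Rieske iron-sulfur protein, had 104, 105, 88.3 and 96.5 CPM in control ileum and 295, 331, 310.4 and 259.5 CPM in control duodenum (log2 fold change -1.59, SE 0.10, edgeR adjusted p = 6.46e-07). The Cyc1 gene for cytochrome c1, a complex III subunit whose name falls outside the rule, averaged 74.1 ± 9.16 CPM in mutant ileum and 132.8 ± 13.5 CPM in mutant duodenum (SD, n = 4 each; log2 fold change -0.84, edgeR adjusted p = 0.000412). It averaged 52.4 ± 2.19 CPM in control ileum and 146 ± 15.9 CPM in control duodenum (SD, n = 4 each; log2 fold change -1.47, edgeR adjusted p = 4.37e-07).

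Complex IV, cytochrome c oxidase, has several subunits with tissue-specific isoforms. Of its 16 tested nuclear members, 12 were called lower in each genotype (median log2 fold change -0.91 in mutant and -1.33 in control mice). Cox4i1, the widely expressed isoform of subunit 4, had 232, 135, 240.1 and 202 CPM in mutant ileum and 401, 379.7, 468 and 341 CPM in mutant duodenum (log2 fold change -0.97, SE 0.18, edgeR adjusted p = 0.00212). It had 218, 252, 177.2 and 205 CPM in control ileum and 464, 527, 442 and 410.5 CPM in control duodenum (log2 fold change -1.10, SE 0.12, edgeR adjusted p = 2.6e-05). The tissues did not overlap. Its lung-enriched counterpart Cox4i2 averaged 0.286 ± 0.112 CPM in mutant ileum and 0.302 ± 0.0751 CPM in mutant duodenum (SD, n = 4 each) and was not called in either genotype. Cox6a1, the liver-type isoform, averaged 137 ± 37.6 CPM in mutant ileum and 337 ± 51.2 CPM in mutant duodenum (SD, n = 4 each; log2 fold change -1.30, edgeR adjusted p = 0.000754), and 141 ± 19.9 CPM in control ileum and 428 ± 29.6 CPM in control duodenum (log2 fold change -1.58, edgeR adjusted p = 1.6e-06). The muscle isoform Cox6a2 had 144 counts in all 16 libraries together and was not tested for tissue. Cox6b1 and Cox8a, the widely expressed isoforms of their subunits, were called lower in ileum in both genotypes. Cox6b1 averaged 96.6 ± 13.3 CPM in control ileum and 296 ± 27.6 CPM in control duodenum (SD, n = 4 each; log2 fold change -1.60, edgeR adjusted p = 1.51e-06). Cox8a averaged 81.1 ± 11.7 CPM in control ileum and 217 ± 21.4 CPM in control duodenum (SD, n = 4 each; log2 fold change -1.41, edgeR adjusted p = 3.38e-06). The testis isoform Cox6b2 averaged 0.949 ± 0.336 CPM in control ileum and 1.08 ± 0.412 CPM in control duodenum (SD, n = 4 each) and was not called, and Cox8b, a heart and muscle isoform, had 51 counts in all.

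The subunit 7a isoforms held the member with the largest tissue difference. Cox7a1, known as the heart and skeletal muscle isoform, had 11.1, 3.78, 11.2 and 11.4 CPM in mutant ileum and 50.1, 37.3, 54.9 and 32.1 CPM in mutant duodenum (log2 fold change -2.22, SE 0.34, edgeR adjusted p = 0.00143). It had 7.42, 15.7, 4.78 and 7.34 CPM in control ileum and 44.4, 78.3, 49.9 and 37.9 CPM in control duodenum (log2 fold change -2.57, SE 0.42, edgeR adjusted p = 0.00173). Every ileum library lay below every duodenum library, and no other member reached this size of fold change in either genotype. Summed levels of 5 striated muscle markers were 7.38 to 13.96 CPM in mutant ileum and 6.54 to 25.04 CPM in mutant duodenum, and 9.72 to 14.9 CPM in control ileum and 3.88 to 19.1 CPM in control duodenum. Summed levels of 4 adipose markers were 61.3 to 127 CPM in mutant ileum and 53.7 to 141 CPM in mutant duodenum, and 53.8 to 76.3 CPM in control ileum and 113 to 167.3 CPM in control duodenum, without overlap in control mice, and control mouse 2 had the highest sum of the control mice in both tissues. Of these 4 adipose markers, 3 were called higher and 0 lower in the ileum of mutant mice, with a median log2 fold change of 4.25. In control mice 2 were called higher and 1 lower in ileum, with a median of 2.14, although the sum was lower there. The part of other tissues in the Cox7a1 difference was not tested. Cox7a2, the liver-type isoform, had 61.5, 71.6, 50.1 and 58.6 CPM in control ileum and 178, 206, 180.2 and 151.1 CPM in control duodenum (log2 fold change -1.55, SE 0.12, edgeR adjusted p = 2.56e-06). Cox7a2l, a related protein linked to supercomplexes of complexes III and IV, had 48.3, 50.2, 35.8 and 45.9 CPM in control ileum and 75.3, 70.8, 69.5 and 72.2 CPM in control duodenum (log2 fold change -0.66, SE 0.10, edgeR adjusted p = 0.000186), the smallest fall of any called nuclear member in control mice. Per kilobase of exon, Cox7a1 stood at 81.5 and 98.4 CPM per kb in mutant and control duodenum, beside 159.7 and 189 CPM per kb for Cox7a2. In mutant and control ileum the levels were 17.5 and 16.5 CPM per kb for Cox7a1, beside 81.6 and 64.03 CPM per kb for Cox7a2. Ndufa4, a subunit first assigned to complex I, averaged 57.03 ± 16.3 CPM in mutant ileum and 95.5 ± 17.6 CPM in mutant duodenum (SD, n = 4 each; log2 fold change -0.74, edgeR adjusted p = 0.0177), and 44.7 ± 9.93 CPM in control ileum and 121 ± 30.2 CPM in control duodenum (log2 fold change -1.42, edgeR adjusted p = 0.000348). The call in mutant mice was lost without mouse 4 (edgeR adjusted p = 0.0803). Its hypoxia-inducible paralog Ndufa4l2 averaged 0.500 ± 0.165 CPM in mutant ileum and 0.590 ± 0.226 CPM in mutant duodenum (SD, n = 4 each) and was not called in either genotype. Cox7c, at 2.94 ± 0.571 CPM in mutant ileum and 3.75 ± 0.584 CPM in mutant duodenum (SD, n = 4 each), was not called in either genotype, and 22.11% of its windows are shared with processed pseudogenes.

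Complex V makes ATP from the proton gradient. Of its 17 tested nuclear members, 14 were called lower in mutant mice (median log2 fold change -0.73), and 15 were called lower and 1 higher in control mice (median -1.18). Atp5b, the catalytic beta subunit, had 1632, 1244, 1592 and 1503 CPM in mutant ileum and 2318, 1951, 2483 and 2018 CPM in mutant duodenum (log2 fold change -0.55, SE 0.16, edgeR adjusted p = 0.0252). It had 1223, 1284, 1046 and 1090.1 CPM in control ileum and 2374, 2527, 2353 and 2078 CPM in control duodenum (log2 fold change -0.99, SE 0.11, edgeR adjusted p = 3.42e-05). The tissues did not overlap in either genotype, although the call in mutant mice was lost when any 1 of the 4 mutant mice was left out (largest adjusted p = 0.11 by edgeR). The c ring is encoded by 3 genes whose mature proteins are the same. Atp5g3 averaged 231 ± 64.02 CPM in mutant ileum and 369.8 ± 85.4 CPM in mutant duodenum (SD, n = 4 each; log2 fold change -0.68, edgeR adjusted p = 0.0374), and Atp5g1 averaged 12.7 ± 2.42 CPM and 21.1 ± 3.32 CPM in the same groups (SD, n = 4 each; log2 fold change -0.73, edgeR adjusted p = 0.00633). Atp5g2 averaged 0.737 ± 0.292 CPM in mutant ileum and 0.753 ± 0.108 CPM in mutant duodenum (SD, n = 4 each), was not called in either genotype, and shares 38.35% of its windows. The c ring genes, Cox7c, Atp5s and Ndufs5 are named after their values were seen.

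Atp5l, for subunit g of the membrane part of complex V, was the only member called higher in the ileum of control mice. It had 6.45, 4.52, 8.16 and 6.45 CPM in control ileum and 4.00, 4.20, 3.77 and 4.06 CPM in control duodenum (log2 fold change 0.69, SE 0.17, edgeR adjusted p = 0.00518), with no overlap. In mutant mice the values ran the other way without passing the threshold, at 4.16, 5.00, 3.69 and 4.25 CPM in ileum and 7.10, 6.60, 4.28 and 6.30 CPM in duodenum (log2 fold change -0.50, SE 0.20, edgeR adjusted p = 0.0728). The annotation gives Atp5l a long exon model and several processed pseudogenes, with 9.99% of its windows shared. Its level per length was 0.663 CPM per kb in mutant ileum and 0.993 CPM per kb in control ileum, beside 14.7 and 12.9 CPM per kb for Atp5j2, subunit f of the same membrane part. Atp5s, a factor linked to complex V, averaged 4.58 ± 0.862 CPM in mutant ileum and 5.16 ± 1.16 CPM in mutant duodenum (SD, n = 4 each; log2 fold change -0.17, edgeR adjusted p = 0.558).

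The 7 counted mitochondrial genes were all called lower in the ileum of mutant mice, where 18.2% of all tested genes were lower. In control mice 2 of the 7 (28.6%) were called lower, near the 30.3% of all tested genes. mt-Nd1, a membrane-arm core subunit of complex I, had 5217, 4597, 4451 and 4175 CPM in mutant ileum and 11625, 10781, 6328 and 6718 CPM in mutant duodenum (log2 fold change -0.95, SE 0.25, edgeR adjusted p = 0.0148). It had 4307, 4222, 4710.2 and 5018 CPM in control ileum and 6330.0, 3357, 4353 and 6352 CPM in control duodenum (log2 fold change -0.15, SE 0.20, edgeR adjusted p = 0.554). The tissues were apart in mutant mice and overlapped in control mice. mt-Cytb, cytochrome b of complex III, had 4979, 3933, 4649.6 and 4842 CPM in mutant ileum and 9532, 11191, 7399 and 8022 CPM in mutant duodenum (log2 fold change -0.98, SE 0.21, edgeR adjusted p = 0.00498). It had 5543, 5912, 5394 and 5762 CPM in control ileum and 8503, 4463, 5609 and 7434 CPM in control duodenum (log2 fold change -0.19, SE 0.19, edgeR adjusted p = 0.406). As for mt-Nd1, the control duodenum values spread on both sides of the ileum values. mt-Co1, the catalytic subunit of complex IV, was called lower in both genotypes. It had 5667, 3415, 5212 and 4998 CPM in mutant ileum and 11986, 9531, 9759 and 8848 CPM in mutant duodenum (log2 fold change -1.06, SE 0.22, edgeR adjusted p = 0.00415). It had 5527, 5699, 5252 and 5348 CPM in control ileum and 11261, 5546, 7617 and 8469.7 CPM in control duodenum (log2 fold change -0.58, SE 0.19, edgeR adjusted p = 0.022). Control mouse 2 had the lowest value in duodenum and the highest in ileum. mt-Nd6, the protein gene on the light strand, was also lower in both, averaging 81.7 ± 12.2 CPM in mutant ileum and 166 ± 21.5 CPM in mutant duodenum (log2 fold change -1.02, edgeR adjusted p = 0.000287; SD, n = 4 each), and 75.3 ± 10.9 CPM in control ileum and 138 ± 46.2 CPM in control duodenum (log2 fold change -0.86, edgeR adjusted p = 0.0158). The calls of mt-Co1 and mt-Nd6 in control mice were lost when mouse 4 was left out, and that of mt-Co1 also without mouse 1 or mouse 3 (largest edgeR adjusted p = 0.146). The remaining core subunits of the complex I membrane arm were called in mutant mice, with log2 fold changes of -0.98 for mt-Nd2, -0.90 for mt-Nd4 and -0.72 for mt-Nd5. The call of mt-Nd1 in mutant mice was lost without mouse 1 or mouse 2, and that of mt-Nd5 without mouse 1, 2 or 4 (largest edgeR adjusted p = 0.0821 for mt-Nd1 and 0.0705 for mt-Nd5). In control mice these 3 genes had log2 fold changes of -0.12, -0.03 and 0.24 and were not called.

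In the ileum, mutant mice had higher levels of part of the nuclear subunits and lower levels of a few mitochondrial ones. Of 87 tested members, 24 were called higher and 3 lower, where 19% of all tested genes were higher and 14.6% lower, 33.6% in all. All 24 were nuclear, with 15 of 35 in complex I, 1 of 4 in complex II, 4 of 8 in complex III, 0 of 16 in complex IV and 4 of 17 in complex V. The median log2 fold change, mutant over control, was 0.29 for the nuclear and -0.24 for the mitochondrial members, beside -0.03 for all tested genes. The share of nuclear members called higher, 30% of 80, stands against the 19% of all genes. By complex it was 42.9% in complex I, 25% in complex II, 50% in complex III, 0% in complex IV and 23.5% in complex V. The shares of complexes II and V were near that of all genes. At an unadjusted p under 0.05 by edgeR there were 36 of 87 members, a slightly smaller share than the 8057 of all 18310 tested genes. In complex IV, 1 of 16 members passed that limit.

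The called complex I subunits included both the electron-carrying core and the accessory shell. Ndufs1, the core subunit with iron-sulfur clusters in the NADH-oxidising arm, had 149, 127, 126 and 138 CPM in mutant ileum and 104, 99.3, 101 and 96.9 CPM in control ileum (log2 fold change 0.46, SE 0.08, edgeR adjusted p = 0.00172). Every mutant library was above every control library. The accessory subunit Ndufa10 had 182, 122, 179.8 and 165 CPM in mutant ileum and 116, 118, 99.1 and 107 CPM in control ileum (log2 fold change 0.58, SE 0.12, edgeR adjusted p = 0.00466). Ndufc2, an accessory subunit of the membrane arm, had 40.8, 26.6, 42.4 and 33.95 CPM in mutant ileum and 22.7, 25.5, 23.5 and 22.7 CPM in control ileum (log2 fold change 0.63, SE 0.13, edgeR adjusted p = 0.00467). For both genes the groups were apart, with mutant mouse 2 nearest to the controls. Ndufa8 had 56.2, 38.97, 56.2 and 50.7 CPM in mutant ileum and 38.6, 36.1, 34.2 and 37.6 CPM in control ileum (log2 fold change 0.49, SE 0.11, edgeR adjusted p = 0.00743). Ndufb6 had 29.9, 20.1, 27.9 and 26.2 CPM in mutant ileum and 14.7, 18.6, 15.8 and 15.1 CPM in control ileum (log2 fold change 0.72, SE 0.13, edgeR adjusted p = 0.00198). Both are accessory subunits, and their groups did not overlap. Ndufb6 shares 31.56% of its windows with Smim27, a gene on chromosome 4.

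Among the other complexes, Sdhd, a membrane anchor of complex II, had 174, 107, 169.6 and 150.6 CPM in mutant ileum and 96.2, 117, 85.9 and 102 CPM in control ileum (log2 fold change 0.60, SE 0.15, edgeR adjusted p = 0.0107). Mutant mouse 2 fell inside the control range and the other mutant mice lay above it. Sdha averaged 355 ± 35.2 CPM in mutant ileum and 324 ± 20.4 CPM in control ileum and was not called (SD, n = 4 each; log2 fold change 0.15, edgeR adjusted p = 0.24). In complex III, Uqcrc1 averaged 334 ± 49.7 CPM in mutant ileum and 270.2 ± 13.5 CPM in control ileum (SD, n = 4 each; log2 fold change 0.33, edgeR adjusted p = 0.0419). This call was lost under 10 of the alternatives. In complex IV, Cox4i1 averaged 202 ± 47.6 CPM in mutant ileum and 213 ± 31.00 CPM in control ileum (SD, n = 4 each; log2 fold change -0.05, edgeR adjusted p = 0.832). In complex V, Atp5b had 1632, 1244, 1592 and 1503 CPM in mutant ileum and 1223, 1284, 1046 and 1090.1 CPM in control ileum (log2 fold change 0.39, SE 0.11, edgeR adjusted p = 0.0241), with mutant mouse 2 inside the control range. The call of Atp5b was lost under 7 alternatives.

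The 3 members called lower in mutant ileum were mt-Nd2, mt-Nd4 and Atp5l. mt-Nd2 had 2288, 2064, 2069.8 and 2047 CPM in mutant ileum and 2708, 2729.5, 2793 and 2687 CPM in control ileum (log2 fold change -0.34, SE 0.09, edgeR adjusted p = 0.017). mt-Nd4 had 2005, 1625, 1959.5 and 1989 CPM in mutant ileum and 2545, 2642, 2539 and 2490.0 CPM in control ileum (log2 fold change -0.41, SE 0.10, edgeR adjusted p = 0.0105). For both, which encode antiporter-like subunits of the complex I membrane arm, every mutant library lay below every control library. Both calls were lost when all 16 libraries shared 1 estimate of the spread, without mutant mice 2 and 4, and without control mice 2 and 4, and that of mt-Nd2 also without mutant mouse 3 or 4 (largest edgeR adjusted p over the alternatives 0.161 for mt-Nd2 and 0.0935 for mt-Nd4). mt-Nd5 averaged 2798 ± 243 CPM in mutant ileum and 3362 ± 179 CPM in control ileum (SD, n = 4 each; log2 fold change -0.24, edgeR adjusted p = 0.102), and mt-Cytb averaged 4601 ± 465 CPM and 5653 ± 229.9 CPM in the same groups (log2 fold change -0.27, edgeR adjusted p = 0.0758). Neither was called, and in both the groups did not overlap. mt-Nd1 averaged 4609.9 ± 441 CPM in mutant ileum and 4564 ± 370.1 CPM in control ileum (log2 fold change 0.04, edgeR adjusted p = 0.826), mt-Nd6 averaged 81.7 ± 12.2 CPM and 75.3 ± 10.9 CPM (log2 fold change 0.14, edgeR adjusted p = 0.421), and mt-Co1 averaged 4823 ± 979 CPM and 5456 ± 198 CPM (log2 fold change -0.16, edgeR adjusted p = 0.434; SD, n = 4 for each mean). Atp5l had 4.16, 5.00, 3.69 and 4.25 CPM in mutant ileum and 6.45, 4.52, 8.16 and 6.45 CPM in control ileum (log2 fold change -0.55, SE 0.19, edgeR adjusted p = 0.0407), with overlap, and its call was lost under 8 alternatives.

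The count of called members in the ileum depended on which mice were included. The share of all tested genes called in each of these fits is not given here, so the changes cannot be read as particular to the subunits. Without mutant mouse 2, which had the lowest nuclear sum of the mutant ileum group, 54 members were higher and 3 lower, and without mutant mice 2 and 4 the counts were 56 and 0. Without control mice 2 and 4, 7 were higher and 1 lower. The total was 11 without mutant mouse 4, 12 without mutant mouse 3 or control mouse 3, 13 without mutant mouse 1, 14 without control mouse 4, 16 without control mouse 1 and 25 without control mouse 2. The enterocyte marker sum of mutant ileum was also lowest in mouse 2, at 8264 CPM, and the sums were 8264 to 18211 CPM in mutant ileum and 16719 to 27642 CPM in control ileum, where 1 of 9 markers was called higher and 1 lower. Of the 8 lymphoid follicle markers, 6 were called lower in mutant ileum. The part of these differences in the subunit results was not tested beyond the counts without those mice.

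In the duodenum, no member was called. The count was 0 of 87, where 3.44% of all tested genes were higher and 5.11% lower in mutant mice, 8.55% in all. At an unadjusted p under 0.05 by edgeR there were 16 of 87 members, a smaller share than the 5143 of all 17611 tested genes. With DESeq2 6 members were called and with limma-voom 0. A p-value that misses the threshold does not show equal levels, and the log2 fold changes leaned in opposite directions for the genomes. Of the 80 nuclear members, 74 had a negative log2 fold change (median -0.16, beside 0.02 for all tested genes), and 7 of 7 mitochondrial members had a positive one (median 0.50). Atp5j2, subunit f of complex V, had 103, 80.2, 111 and 89.6 CPM in mutant duodenum and 123, 142, 129 and 112 CPM in control duodenum (log2 fold change -0.37, SE 0.12, edgeR adjusted p = 0.0707). Atp5l had 7.10, 6.60, 4.28 and 6.30 CPM in mutant duodenum and 4.00, 4.20, 3.77 and 4.06 CPM in control duodenum (log2 fold change 0.63, SE 0.17, edgeR adjusted p = 0.0509). These 2 nuclear members had the smallest p-values, their groups did not overlap, and their directions were opposite. Among the mitochondrial members, mt-Nd5 had 4948, 5445, 3699 and 4335 CPM in mutant duodenum and 3545, 1838, 2773 and 3383 CPM in control duodenum (log2 fold change 0.70, SE 0.25, edgeR adjusted p = 0.0929), again with no overlap. mt-Nd1 averaged 8863 ± 2729 CPM in mutant duodenum and 5098 ± 1492 CPM in control duodenum (SD, n = 4 each; log2 fold change 0.83, edgeR adjusted p = 0.0999). Atp5b stood at 2193 ± 251 CPM in mutant and 2333 ± 187 CPM in control duodenum (SD, n = 4 each; log2 fold change -0.06, edgeR adjusted p = 0.826). With mutant mouse 3 left out, the count was 4. The shares of all tested genes in that fit and with DESeq2 are not given here. Pancreas marker sums were 8511 to 187911 CPM in mutant and 3.90 to 30421 CPM in control duodenum, and without mutant mice 2 and 4, which had the highest sums, 0 members were called.

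**Figure D4:**
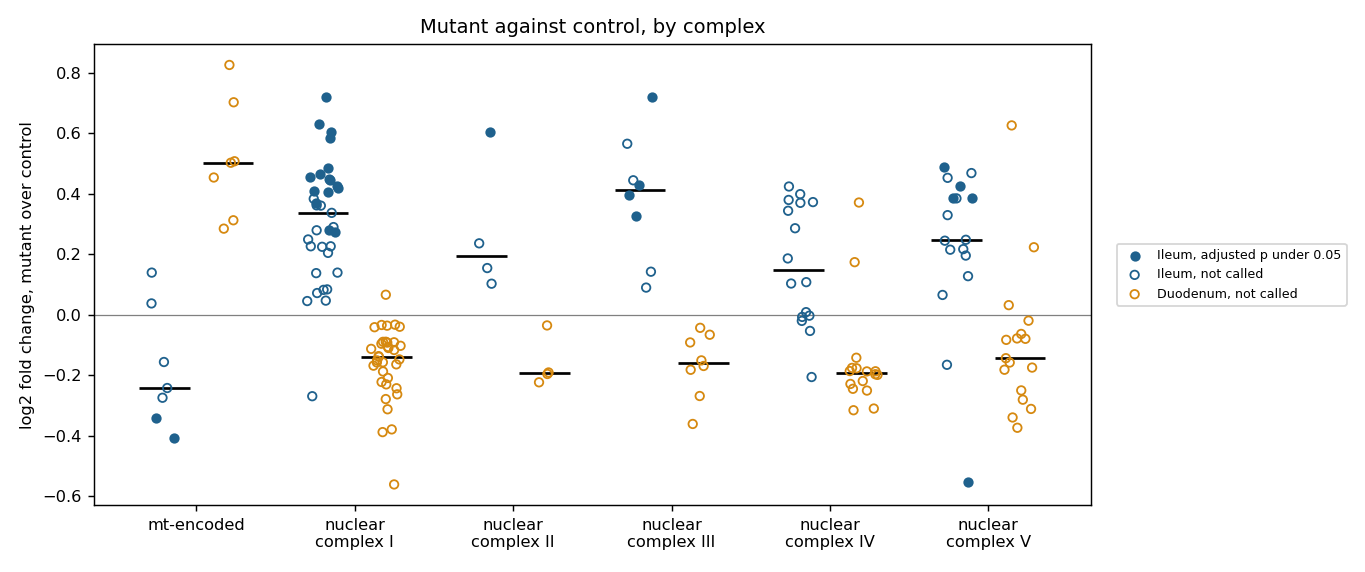
Log2 fold change, mutant over control, of each tested subunit in ileum (blue, left of each pair) and duodenum (orange, right), grouped as mitochondrially encoded or by nuclear complex. Filled points have an adjusted p under 0.05, open points do not, and black lines are medians. In ileum the nuclear median is 0.29 and the mitochondrial median -0.24, in duodenum they are -0.16 and 0.50, and no duodenum point is filled.

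The genotype difference itself differed between the tissues for some members. The test of the difference (mutant over control in ileum, minus mutant over control in duodenum) called 12 of 88 members higher and 2 lower, where 4.86% of all tested genes were higher and 4.13% lower, 8.99% in all. With the mouse as a replicate block, which uses the pairing of the tissues, 40 were higher and 6 lower. The share of all tested genes called with the block is not given here, so these counts cannot be read as particular to the subunits. Of the 12, 9 are in complex I, 1 in complex II and 2 in complex III. The largest log2 differences among them were 0.90 (SE 0.24, edgeR adjusted p = 0.0329) for Ndufa5 and 0.89 (SE 0.27, edgeR adjusted p = 0.0488) for Uqcr10, small subunits of complexes I and III named after their values were seen. The smallest p-values among the 12 belonged to Ndufb6 (log2 difference 0.74, SE 0.17, edgeR adjusted p = 0.0204), Uqcrfs1 (0.74, SE 0.18, adjusted p = 0.0225) and Ndufs1 (0.55, SE 0.13, adjusted p = 0.0241). Ndufa8, Ndufa10 and Ndufc2 followed, with log2 differences of 0.58, 0.60 and 0.65 and edgeR adjusted p-values of 0.0279, 0.0313 and 0.0322. The members called lower were Atp5l (log2 difference -1.20, SE 0.26, edgeR adjusted p = 0.0154) and mt-Nd5 (-0.96, SE 0.27, adjusted p = 0.0387). The other 6 mitochondrial members had log2 differences from -0.88 for mt-Nd4 (adjusted p = 0.0504 by edgeR) to -0.16 for mt-Nd6 (adjusted p = 0.715) and were not called. These counts rested on few mice. The total was 0 when control mouse 1, control mouse 3 or mutant mouse 1 was left out. It was 2 when control mouse 2 or mutant mouse 4 was left out, 3 for control mouse 4 and 37 for mutant mouse 2. Leaving out control mice 2 and 4 together gave 0, and leaving out mutant mice 2 and 4 gave 25. No tissue or genotype comparison is independent of this test, since they use the same libraries.

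The balance between the genomes can be read within a library as the ratio of summed mitochondrial to summed nuclear counts, which needs no library size. On the log2 scale it was 1.28, 1.47, 1.15 and 1.29 in mutant ileum and 1.73, 1.68, 1.97 and 1.89 in control ileum. The mutant values all lay below the control values, and the means were 1.30 ± 0.13 and 1.82 ± 0.13 (SD, n = 4 each). The ratio was 1.59, 1.81, 1.01 and 1.40 in mutant duodenum and 1.17, 0.12, 0.65 and 1.14 in control duodenum, with means of 1.45 ± 0.34 and 0.77 ± 0.50 (SD, n = 4 each) and with overlap. Within each mouse, ileum minus duodenum, the log2 ratio differed by -0.31, -0.34, 0.13 and -0.11 in mutant mice 1, 2, 3 and 4, and by 0.56, 1.56, 1.31 and 0.75 in control mice 1, 2, 3 and 4. All 4 control mice had a higher ratio in ileum, and the mutant mice lay near 0. No p-value is given for this score, since its members were chosen with results of these data known. Counting limits it too, as 6 of the 13 mitochondrial genes add nothing to the sum. With all members that share 10% or more of their windows left out, the mean difference was -0.11 in mutant mice and 1.17 in control mice, beside -0.16 and 1.05 with them. Without mutant mice 2 and 4 it was -0.09 in mutant mice, and without control mice 2 and 4 it was 0.93 in control mice. In control duodenum the mice with the lowest ratios, mouse 2 at 0.12 and mouse 3 at 0.65, had pancreas marker sums of 8.7 and 19524 CPM, and mice 1 and 4, at 1.17 and 1.14, had 30421 and 3.90 CPM.

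**Figure D5:**
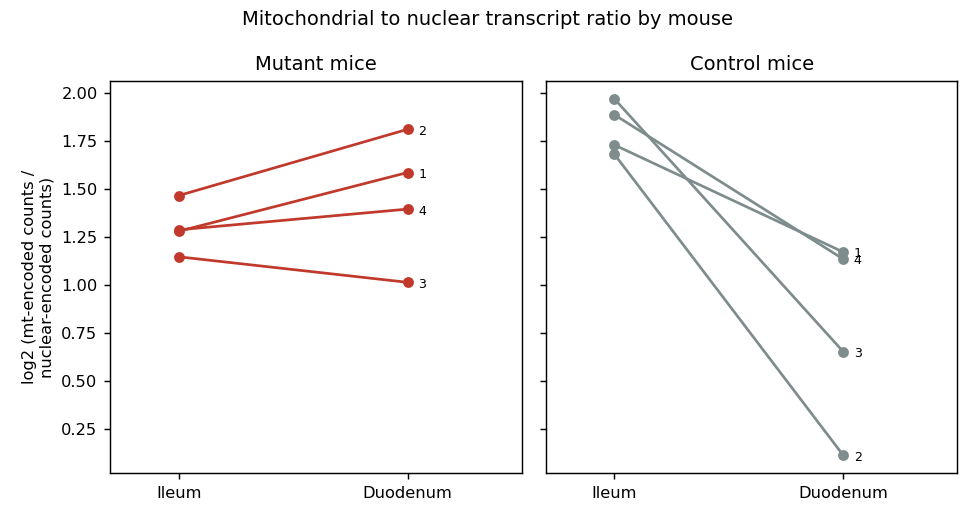
Log2 ratio of summed mitochondrially encoded counts to summed nuclear-encoded subunit counts (y) in ileum and duodenum of each mouse, joined by a line, for mutant (left) and control mice (right). In mutant mice ileum and duodenum differ by no more than 0.34 in either direction, and in 4 of 4 control mice the ileum point lies above the duodenum point.

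Subunit genes that move together can be compared by the letters of their promoters. RefSeq promoters (250 bases before to 50 bases after the gene start, GRCm38.p6) were matched for 66 of the 84 nuclear symbols. They were searched on both strands for GCGCA and GCGC parted by any 1 base (NRF1), AAGGTCA (ERR), CCGGAAG (ETS, the family of GABP) and AAGATGGC (YY1), factors known to bind promoters of respiratory genes. The last pair of motifs can overlap by AAG. The NRF1 letters occurred in 17 members (25.8%) and in 5.19% of the 27025 genes with a promoter. The ETS letters occurred in 16 members (24.2%) and 9.93% of genes, the YY1 letters in 9 members (13.6%) and 3.19% of genes, and the ERR letters in 8 members (12.1%) and 5.38% of genes. At least 1 of the 4 occurred in 37 members (56.1%) and 21.1% of genes. The 27025 genes were not matched to the members for expression or base composition, and the part of these in the shares was not tested. A match describes letters and not a bound site. Among tested members, the median log2 fold change, control ileum over duodenum, was -1.21 for the 37 with a match and -1.26 for the 27 without. The median for mutant over control in ileum was 0.23 with a match and 0.34 without. Promoters of 4 members are shown, those of Sdhd (letters of 3 motifs), Cox6a1 (NRF1 and ETS), Uqcrc1 (NRF1) and Cox7a1, the member with the largest tissue difference and no match. They are written 5′ to 3′ along the gene, and capitals mark the matched letters in either orientation.
Sdhd, chr9:50603800-50604099, - strand: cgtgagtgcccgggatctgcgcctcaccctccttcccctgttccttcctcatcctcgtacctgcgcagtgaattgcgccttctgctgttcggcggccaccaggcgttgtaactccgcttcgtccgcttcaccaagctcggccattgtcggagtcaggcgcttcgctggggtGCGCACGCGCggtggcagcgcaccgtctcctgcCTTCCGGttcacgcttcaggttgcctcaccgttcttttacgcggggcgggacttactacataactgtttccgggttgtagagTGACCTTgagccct
Cox6a1, chr5:115348909-115349208, - strand: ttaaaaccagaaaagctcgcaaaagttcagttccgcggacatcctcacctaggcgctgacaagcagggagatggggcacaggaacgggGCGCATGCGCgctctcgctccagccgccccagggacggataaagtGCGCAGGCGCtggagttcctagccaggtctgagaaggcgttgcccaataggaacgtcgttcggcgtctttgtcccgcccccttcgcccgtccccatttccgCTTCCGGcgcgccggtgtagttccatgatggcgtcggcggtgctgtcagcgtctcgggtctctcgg
Uqcrc1, chr9:108936398-108936697, + strand: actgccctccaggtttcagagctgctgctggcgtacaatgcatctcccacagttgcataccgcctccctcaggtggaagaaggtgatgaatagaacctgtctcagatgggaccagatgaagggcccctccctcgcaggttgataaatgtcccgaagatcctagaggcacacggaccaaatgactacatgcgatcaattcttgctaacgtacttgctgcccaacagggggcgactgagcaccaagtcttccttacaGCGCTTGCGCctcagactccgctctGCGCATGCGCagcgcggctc
Cox7a1, chr7:30183921-30184220, + strand: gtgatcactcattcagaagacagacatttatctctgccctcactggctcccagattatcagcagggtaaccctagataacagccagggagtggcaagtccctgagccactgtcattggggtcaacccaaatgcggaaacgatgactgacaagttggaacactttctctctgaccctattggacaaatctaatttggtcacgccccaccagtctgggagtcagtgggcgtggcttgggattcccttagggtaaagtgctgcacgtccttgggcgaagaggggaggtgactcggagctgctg

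Genes that build or regulate the complexes were examined as lists. Of 16 complex I assembly factors, 12 were called higher in mutant than in control ileum and 0 lower (median log2 fold change 0.54), beside the 19% of all genes called higher. Foxred1, an assembly factor, averaged 20.8 ± 2.23 CPM in mutant ileum and 11.1 ± 0.994 CPM in control ileum (SD, n = 4 each; log2 fold change 0.93, edgeR adjusted p = 0.000176). Of 31 tested assembly factors for complexes II to V, 11 were higher and 0 lower, among them Cox10, which takes part in making the heme of complex IV (log2 fold change 0.84, edgeR adjusted p = 0.000744). Of 24 genes for transcription, replication and RNA handling of mitochondrial DNA, 16 were higher and 0 lower. Fastkd2, a mitochondrial RNA-binding protein, averaged 38.5 ± 3.70 CPM in mutant ileum and 19.8 ± 0.627 CPM in control ileum (SD, n = 4 each; log2 fold change 0.99, edgeR adjusted p = 6.62e-05). Of 77 tested mitochondrial ribosomal proteins, which translate the 13 mitochondrial genes, 66 were higher and 0 lower (median log2 fold change 0.58). Mrps22, of the small subunit, averaged 27.8 ± 2.11 CPM in mutant ileum and 13.8 ± 0.952 CPM in control ileum (SD, n = 4 each; log2 fold change 1.03, edgeR adjusted p = 4.94e-05). Of 13 tricarboxylic acid cycle genes, 6 were higher and 0 lower, including Dld (log2 fold change 0.55, edgeR adjusted p = 0.000599). Of the 5 subunits or partners outside the naming rule that were found, 1 was higher, Cyc1 (log2 fold change 0.52, edgeR adjusted p = 0.00197).

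Between the tissues, the counts of these lists are read beside the share of all tested genes, of which 18.2% were lower and 12.9% higher in the ileum of mutant mice. In mutant mice, 8 of 77 mitochondrial ribosomal proteins, 3 of 16 complex I assembly factors, 9 of 31 other assembly factors, 3 of 24 mitochondrial DNA expression genes and 11 of 13 tricarboxylic acid cycle genes were called lower in ileum, and 1 mitochondrial DNA expression gene was called higher. The shares of the ribosomal proteins and of the mitochondrial DNA expression genes were below that of all genes, and that of the complex I assembly factors was close to it. In control mice, where 30.3% of all tested genes were lower and 28% higher, the counts were 76 of 77, 14 of 16, 29 of 31, 11 of 24 and 13 of 13, and 1 ribosomal protein was called higher. The interaction test called 43 of the 77 ribosomal proteins higher and 0 lower, beside 12 of 88 subunits higher and 2 lower, where 4.86% of all tested genes were higher and 4.13% lower. In duodenum, the mutant over control test called Mrps15 lower (log2 fold change -0.41, edgeR adjusted p = 0.0486) and the complex I assembly factor Tmem126b lower (log2 fold change -0.68, edgeR adjusted p = 0.0103), and no other gene of these lists.

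Among 10 regulators of mitochondrial biogenesis, 1 was called lower and none higher in mutant ileum. This was Ppargc1a, the coactivator PGC-1alpha, at 36.5 ± 10.2 CPM in mutant ileum and 63.6 ± 3.88 CPM in control ileum (SD, n = 4 each; log2 fold change -0.77, edgeR adjusted p = 0.00712). Its level was also lower in ileum than in duodenum, averaging 36.5 ± 10.2 CPM and 171 ± 47.7 CPM in mutant mice (log2 fold change -2.23, edgeR adjusted p = 0.000131) and 63.6 ± 3.88 CPM and 169.7 ± 29.3 CPM in control mice (log2 fold change -1.40, edgeR adjusted p = 5.79e-06; SD, n = 4 each). Esrra, the receptor ERR-alpha that PGC-1alpha activates, averaged 64.1 ± 8.29 CPM in ileum and 118 ± 16.4 CPM in duodenum of mutant mice (SD, n = 4 each; log2 fold change -0.88, edgeR adjusted p = 0.000501). It averaged 71.1 ± 6.58 CPM in ileum and 145 ± 20.1 CPM in duodenum of control mice (SD, n = 4 each; log2 fold change -1.02, edgeR adjusted p = 2.11e-05). Of the list, 4 of 9 tested genes were lower in ileum in mutant mice, where 18.2% of all tested genes were lower, and 5 of 10 were lower and 1 higher in control mice, where 30.3% of all tested genes were lower and 28% higher. In mutant ileum Ppargc1a was lower while 24 nuclear subunits were higher.

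Shared sequence touched a minority of nuclear members. Among the 19 tested nuclear members with 10% or more of their windows shared, 16 were lower in ileum in mutant mice and 17 in control mice, and 7 were higher in mutant ileum. Among the 61 below that limit the counts were 56 and 57, with 1 higher in the ileum of control mice, and 17 higher and 1 lower in mutant ileum. The median log2 fold change of the 61 was -0.80 in mutant and -1.26 in control mice for ileum over duodenum, and 0.34 for mutant over control in ileum, beside -0.69, -1.11 and 0.22 in the 19.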

How the data were processed

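The authors deposited 1 table of raw read counts per gene (55359 Ensembl IDs in 16 libraries). Per the labels' protocols, stranded libraries were made from 500 ng of ribodepleted total RNA. The submitters' processing notes name cutadapt 1.10, Bowtie2 2.2.8, STAR 2.5.3a, HTSeq 0.6.1p1 and the mm39 assembly. For the annotation release and the strand setting of the counting, the sources used here give nothing. Libraries held 40.9 to 67.2 M counts.

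Counts were tested with edgeR 4.0.16 (R 4.3.3) by its quasi-likelihood test with TMM scaling, filterByExpr and robust dispersions, in each contrast on its 8 libraries and for the interaction on all 16. P-values were adjusted by Benjamini-Hochberg over all tested genes, and a gene was called at 0.05. The steps were tested on simulated data. CPM used TMM-scaled library sizes. The members and gene lists were chosen with earlier results of these data known. The genes named are the 13 mitochondrial members, the nuclear member with the highest mean CPM in each complex, the tissue isoforms, up to 6 nuclear members per direction with the smallest p in each comparison (2 where none was called), and up to 3 genes per list. Other named genes were chosen after their values were seen. Values of 1 member are not reported here, and it stays in the counts, sums and medians.

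Tissues of 1 mouse are paired by the mouse number in the labels. Over 19018 genes, deviations from the group means correlated at 0.23 to 0.49 between tissues of the same mouse, against -0.00856 to 0.25 with the best other mouse. The alternatives were DESeq2 1.42.0, its size factors in edgeR, limma-voom (limma 3.58.1), no low-count filter, library sizes without the mitochondrial genes, all 16 libraries in 1 fit, the mouse block, and omitted mice. Omission of members with 10% or more shared windows from the ratio was added after seeing the data. Shared sequence was counted as 50-base windows of GENCODE M21 transcripts (GRCm38). That annotation is not of the build of the counts. Besides these sequences, it gave the gene names and biotypes by which members and lists were picked, and the exon lengths behind the levels per kb. It named 52083 of the 55359 IDs. No replicate libraries were identical.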

Additional observations from a re-analysis of the deposited data

Results flagged for a closer look

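Among 172 groups of 4 libraries checked, 4 held a library whose gap to the nearest other exceeded Dixon's 95% critical share of the range, where chance gives about 1 in 20. The summed level of complex II was low in control duodenum mouse 4, at 1502 CPM. mt-Nd2 was high in mutant ileum mouse 1, at 2288 CPM. mt-Nd4 and Cox7a1 were low in mutant ileum mouse 2, at 1625 CPM and 3.78 CPM.

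The genotype difference differed between the tissues, by the interaction test, for the members given next. The log2 difference (mutant over control in ileum, minus the same in duodenum) was 0.90 for Ndufa5, 0.89 for Uqcr10, 0.79 for Sdhd, 0.74 for Ndufb6, 0.74 for Uqcrfs1 and 0.65 for Ndufc2. It was 0.60 for Ndufa10, 0.58 for Ndufa8, 0.57 for Ndufs8, 0.55 for Ndufs1 and 0.50 for Ndufb10. It was negative for Atp5l, at -1.20, and for mt-Nd5, at -0.96. Among 80 nuclear members tested in both tissues, 69 had a positive log2 fold change in ileum and a negative one in duodenum, and 5 of 7 mitochondrial members had the reverse. The share of all genes with either pattern was not counted, and members measured in the same libraries are not independent observations.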

How the results depend on the processing

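The tissue counts kept their direction under every alternative run. Totals were 75 to 79 in control mice (77 as reported) and 64 to 80 in mutant mice (79 as reported). In mutant mice the total was 64 without mouse 4, 68 without mouse 3 and 70 without mouse 1. Every fit scaled libraries by TMM or DESeq2 size factors, and none used unscaled library totals. The genotype counts moved. In duodenum, where 0 members were called, DESeq2 called 6 and the fit of all 16 libraries 3, and leaving out 1 mouse gave 0 to 4 (4 without mutant mouse 3). In ileum, where 27 were called, 56 were called without mutant mice 2 and 4 and 8 without control mice 2 and 4, and leaving out 1 mouse gave 11 to 57. For the interaction, where 14 were called, DESeq2 called 30, 25 were called without mutant mice 2 and 4 and 0 without control mice 2 and 4, and leaving out 1 mouse gave 0 to 37. The share of all tested genes called under each alternative is not given here, so these shifts cannot be read as particular to the subunits. Their cause was not tested.

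With the mouse as a replicate block the interaction total was 46, the control tissue total 77 and the mutant tissue total 80. The block cannot be fitted with the genotype contrasts within a tissue, where each mouse gives 1 library. Over the alternatives, the named members kept their calls in 216 of 220 values in control mice, 241 of 253 in mutant mice, 158 of 192 for genotype in ileum and 83 of 144 for the interaction, and 0 of these values changed sign.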
